A study of Homo sapiens with 6 samples.

Results

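The genes described here are the long intergenic noncoding RNA genes that carry a LINC number as their symbol and were expressed in KYSE150 cells, a line derived from human esophageal squamous cell carcinoma. A gene was taken when its symbol was LINC followed only by digits and its level, averaged over all 6 libraries, reached 1 CPM (the gene's share of all counts in the library times 1e6). Of 2118 such symbols among the 60591 genes of the count table, 211 (9.96%) met this rule. They were chosen by their measured level in these libraries, so the levels below are descriptions. The genes nearest the threshold were LINC00460 at 1.03 CPM and LINC01426 at 1.04 CPM inside it, and LINC01619 at 0.980 CPM and LINC01376 at 0.971 CPM outside it.

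Long noncoding RNAs are transcripts of RNA polymerase II that are usually capped, spliced and polyadenylated but have no long conserved reading frame. Some act in the nucleus on chromatin or on genes close to their own locus, others act in the cytoplasm on RNAs and proteins, and for most LINC genes no function is established. They tend to be expressed at lower levels and in fewer cell types than protein-coding genes, and the LINC number is only an index that says nothing of function.

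The cells were compared after treatment with TPA, a phorbol ester that activates protein kinase C, and with dimethyl sulfoxide (DMSO), the solvent control, by RNA sequencing of 3 libraries per group. TPA was given at 10 ng/ml for 24 h to cells of a 6-well plate that had been kept without serum overnight; the labels state neither a dose nor a time for DMSO. KYSE150 is a single cell line, and no label ties the 3 libraries of a group to different cultures; the p-values therefore describe how these libraries vary, which may be technical variation. In bulk RNA, fewer cells with a transcript and less of it per cell cannot be told apart.

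The libraries held between 27702329 and 33965547 counts, so that 3 counts correspond to between 0.0914 and 0.109 CPM after scaling by edgeR's trimmed mean of M-values (TMM), which covers counting error only. All 10 squamous epithelial markers reached 1 CPM, against 1 of 7 fibroblast, 2 of 6 leukocyte and 1 of 5 endothelial markers. The summed epithelial markers lay between 1868 and 3713 CPM in DMSO and between 1465 and 2827 CPM in TPA, while each of the other 3 sums stayed between 1.16 and 12.2 CPM; DCN and KDR had no count in any library. The libraries numbered 1 stood apart from the others of their group, TPA 1 more than DMSO 1. Among the 211 LINC RNAs, Pearson's r of log2 CPM was 0.972 between DMSO 2 and DMSO 3 and 0.972 between TPA 2 and TPA 3, but 0.745 between TPA 1 and TPA 2 and 0.798 between TPA 1 and TPA 3. DMSO 1 correlated at 0.886 with DMSO 2 and at 0.880 with DMSO 3, and at 0.855 with TPA 1.

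Together the 211 LINC RNAs took 0.181%, 0.187% and 0.190% of all counts in DMSO 1, 2 and 3, and 0.190%, 0.133% and 0.135% in TPA 1, 2 and 3. TPA 2 and TPA 3 were thus below every DMSO library, and TPA 1 was not. The median gene had a mean of 3.48 CPM. There were 62 genes between 1 and 2 CPM and 35 at 10 CPM or more, and only LINC01127 had a library without a count, DMSO 2. In the GENCODE release 29 annotation (GRCh38), 209 of the 211 symbols were matched. Of these, 166 were typed as lincRNA, 15 as processed transcripts, 13 as antisense RNAs, 7 as transcribed pseudogenes and 3 as protein-coding; the remaining 5 were of other noncoding types. They were spread over the chromosomes, with 28 on chromosome 1, 17 on chromosome 2 and 16 on chromosome 3. The longest annotated transcript had a median of 2054 bases, 3 exons and 46.8% GC, compared with 3675 bases, 8 exons and 48.7% GC for the 12223 protein-coding genes at 1 CPM or more. Another annotated gene overlapped 93 of them on the opposite strand and 48 on the same strand, and 95 overlapped none. These overlaps are of gene bodies. The use of strand in the counting is not stated in the labels, so it is not known whether reads of overlapping genes were told apart.

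Among the 8 LINC RNAs with the highest mean CPM, the groups overlapped in 5 and all TPA libraries were above DMSO in 3. LINC00958, also called BLACAT2 and reported in bladder cancer, was the highest by count, at 128, 113 and 109 CPM in DMSO and 176, 130 and 127 CPM in TPA. LINC00294 followed by count, with 53.1, 79.9 and 65.8 CPM in DMSO and 68.7, 73.0 and 74.2 CPM in TPA. LINC01278, an X-linked RNA, was at 48.4, 56.1 and 50.6 CPM in DMSO and 51.2, 59.1 and 52.6 CPM in TPA. For these 3 genes the groups overlapped, and the fitted log2 fold changes of TPA against DMSO were 0.30 ± 0.22 (SE), 0.12 ± 0.22 and 0.07 ± 0.20, with adjusted p of 0.451, 0.781 and 0.855 in edgeR's quasi-likelihood test. The 0.12 of LINC00294 and the 0.07 of LINC01278 turned to -0.14 and -0.18 when libraries were scaled by their totals alone. LINC00511, widely studied as a transcript raised in carcinomas, had 38.1, 60.8 and 66.0 CPM in DMSO and 30.1, 44.1 and 45.0 CPM in TPA, again overlapping (log2 fold change -0.47 ± 0.29, adjusted p = 0.383 in the same test). LINC00662 had 58.2, 40.1 and 45.8 CPM in DMSO and 77.6, 24.7 and 24.8 CPM in TPA, so that TPA 1 was the highest of the 6 libraries and TPA 2 and TPA 3 were the lowest.

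The remaining 3 were LINC02693, LINC00707 and LINC00963. LINC02693 had 35.7, 27.0 and 27.2 CPM in DMSO and 58.9, 64.8 and 63.1 CPM in TPA. Its log2 fold change was 1.05 ± 0.22, with an adjusted p of 0.0644 in edgeR's quasi-likelihood test and of 0.0227 when the replicate number was added as a block. This locus is typed as protein-coding in GENCODE 29 and overlaps 9 other annotated genes. LINC00707 had 36.3, 30.5 and 26.5 CPM in DMSO and 79.1, 42.2 and 43.8 CPM in TPA (0.82 ± 0.31 on the log2 scale, adjusted p = 0.179 by edgeR). LINC00963 had 31.7, 30.4 and 28.7 CPM in DMSO and 38.6, 54.1 and 50.2 CPM in TPA (0.65 ± 0.22 on the log2 scale, adjusted p = 0.145 by edgeR). Neither passed with the block (adjusted p = 0.0627 and 0.0993).

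Per kilobase of merged exons the order was different. LINC02595, an X-linked gene, was highest at 46.2 CPM per kilobase and LINC00958 next at 45.5, followed by LINC01503 at 22.6, LINC00294 at 20.9 and LINC00431 at 17.8. LINC02595 had 19.6, 19.6 and 23.9 CPM in DMSO and 16.0, 12.8 and 12.1 CPM in TPA, with TPA below DMSO throughout (log2 fold change -0.63 ± 0.23, adjusted p = 0.168, edgeR). LINC00511 was at place 109 of the 211 by this measure.

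**Figure D1:**
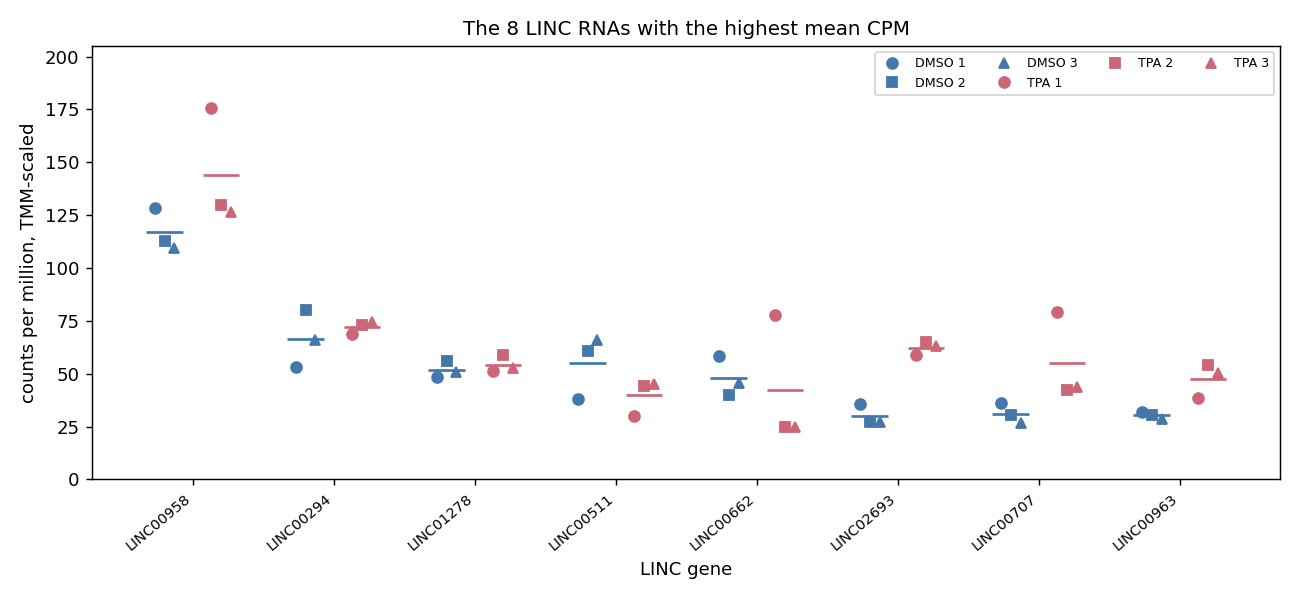
Level in each library (vertical axis, TMM-scaled CPM) of the 8 LINC RNAs with the highest mean CPM (horizontal axis). Points are libraries, DMSO in blue and TPA in red with a shape per replicate number, and short lines are group means; LINC00958 lies above 100 CPM in every library, and the TPA points of LINC02693 lie between 58.9 and 64.8 CPM, above all DMSO points of that gene.

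After 24 h of TPA, 2 LINC RNAs rose and 1 fell at an adjusted p under 0.05 in edgeR's quasi-likelihood test, fitted on all 21825 genes with enough counts. LINC01127 and LINC02178 were the ones that rose and LINC01151 the one that fell. Among all genes tested, 0.861% were called higher and 0.394% lower, so the share among the LINC RNAs, 2 and 1 of 211, was near the background. At an unadjusted p under 0.05, 21 LINC RNAs were higher and 45 lower, where 11.3% and 10.7% of all genes were. All 3 called genes had reached the level threshold through 1 group only and so had to differ between the groups. Of the 211, 7 averaged at least 1 CPM only in TPA, 29 only in DMSO and 175 in both, and none of these 175 passed edgeR's test. At an unadjusted p under 0.05, 14 of the 175 were higher and 26 lower. DESeq2 called 9 and 9 (4.05% and 1.89% of the 40368 genes with any count). That set includes genes with too few counts for edgeR's filter, so its shares are no like background for genes at 1 CPM. Limma-voom called 0 and 3 (1.13% and 0.596% of the 21825 genes), and edgeR with the replicate number as a block 6 and 17 (4.58% and 6.52%). The 21825 genes were not held to 1 CPM in both groups either.

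LINC01127 had the largest fold change. It lies at chr2:101962056-101987167 on the plus strand in GRCh38, has 3 exons in its longest transcript and overlaps no annotated gene. Its level was 0.296, 0 and 0.130 CPM in DMSO (9, 0 and 4 counts) and 23.3, 11.8 and 13.9 CPM in TPA (643, 350 and 426 counts). It was close to the floor in every DMSO library and far above it in every TPA library. The log2 fold change was 6.83 ± 0.78 (adjusted p = 0.025 in edgeR's quasi-likelihood test). The adjusted p was 0.155 without DMSO 2, 0.242 without DMSO 3 and 0.0559 without TPA 3, with log2 fold changes of 6.24, 6.78 and 6.94. Those fits called 0, 0 and 2 of all genes tested, so the lost call does not single out this gene.

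LINC02178 is a short gene of 2 exons at chr16:50390916-50395133 on the minus strand, with a longest transcript of 425 bases. It had 0.526, 0.335 and 0.325 CPM in DMSO and 2.50, 1.98 and 2.80 CPM in TPA, with no overlap and little spread within either group. Its log2 fold change was 2.61 ± 0.36 (adjusted p = 0.0319, edgeR). LINC01151 lies at chr8:122670385-122694106 on the minus strand and had 1.25, 1.86 and 2.28 CPM in DMSO and 0.326, 0.302 and 0.163 CPM in TPA. The TPA libraries held 9, 9 and 5 counts, against 38, 61 and 70 in DMSO, and the log2 fold change was -2.75 ± 0.43 (adjusted p = 0.041, edgeR). Both calls were lost when single libraries were left out, but those fits called fewer genes of any kind. With all 6 libraries, 274 of all genes tested were called. The number was 139 without DMSO 1, 0 without DMSO 2 or DMSO 3, 25 without TPA 2 and 2 without TPA 3. For LINC02178 the adjusted p was 0.263 without DMSO 2, 0.274 without DMSO 3, 0.0839 without TPA 2 and 0.126 without TPA 3. For LINC01151 it was 0.0541 without DMSO 1, 0.288 without DMSO 2, 0.276 without DMSO 3, 0.123 without TPA 2 and 0.162 without TPA 3. Adding the replicate number as a block, or correcting for GC content, kept all 3 calls, as the block's adjusted p of 2.66e-05 for LINC01127, 0.0034 for LINC02178 and 0.00753 for LINC01151 shows.

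Beyond these 3, the highest and lowest fold changes among LINC RNAs with separate groups were in 9 genes. In all of them but LINC01981, the libraries numbered 1 were either the highest or the lowest of both groups. LINC02154, an X-linked gene, had 3.22, 0.823 and 0.618 CPM in DMSO and 27.8, 7.08 and 9.84 CPM in TPA. LINC01705 on chromosome 1 had 1.05, 0.305 and 0.0976 CPM in DMSO and 7.35, 1.61 and 1.63 CPM in TPA. LINC00520 on chromosome 14 had 0.920, 0.152 and 0.195 CPM in DMSO and 4.52, 1.14 and 1.11 CPM in TPA. In all 3 genes, both libraries numbered 1 were the highest of their group. Their log2 fold changes were 3.26 ± 0.79, 2.86 ± 0.92 and 2.41 ± 0.85, and none passed edgeR's quasi-likelihood test (adjusted p = 0.0756, 0.132 and 0.159). With the replicate number as a block, all 3 passed (adjusted p = 0.000139, 0.00207 and 0.00489). Of these, LINC01705 and LINC00520 averaged 1 CPM only in TPA, so the level rule took them for being high there and their tests are a description. LINC02310, also on chromosome 14, had 0.854, 0.548 and 0.130 CPM in DMSO and 3.80, 2.12 and 2.74 CPM in TPA (log2 fold change 2.49 ± 0.60, adjusted p = 0.0753 without and 0.00853 with the block, edgeR), and it too averaged 1 CPM only in TPA.

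On the lower side, LINC02615 was the most abundant of the named genes. This gene at chr4:128292751-128519394 had 6.70, 28.1 and 27.9 CPM in DMSO and 2.57, 3.56 and 4.43 CPM in TPA. The highest TPA library was below the lowest DMSO library, although DMSO 1 held much less than DMSO 2 and DMSO 3. LINC02541 on chromosome 6 had 0.657, 3.53 and 3.02 CPM in DMSO and 0.109, 0.201 and 0.423 CPM in TPA. LINC02643 on chromosome 10 had 0.723, 4.11 and 4.39 CPM in DMSO and 0.0362, 0.571 and 0.456 CPM in TPA. For all 3, both libraries numbered 1 were the lowest of their group. The log2 fold changes were -2.57 ± 0.55 for LINC02615, -3.27 ± 0.75 for LINC02541 and -3.09 ± 0.90 for LINC02643. Without the block these had adjusted p of 0.0659, 0.0704 and 0.106 in edgeR's test, and with it 0.00225, 0.00256 and 0.00144. LINC02541 and LINC02643 averaged 1 CPM only in DMSO, so the level rule took them for being high there and their tests are a description.

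LINC00456 on chromosome 13 had 6.11, 3.23 and 4.23 CPM in DMSO and 1.77, 0.537 and 0.261 CPM in TPA. LINC01981 on chromosome 3 had 2.99, 4.78 and 5.89 CPM in DMSO and 2.17, 0.537 and 0.782 CPM in TPA, and it overlaps LINC01980 on the opposite strand. The log2 fold changes were -2.40 ± 0.66 and -1.97 ± 0.55, with adjusted p of 0.0958 and 0.101 by edgeR, and of 0.005 and 0.0248 with the block. LINC00456 also averaged 1 CPM only in DMSO.

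**Figure D2:**
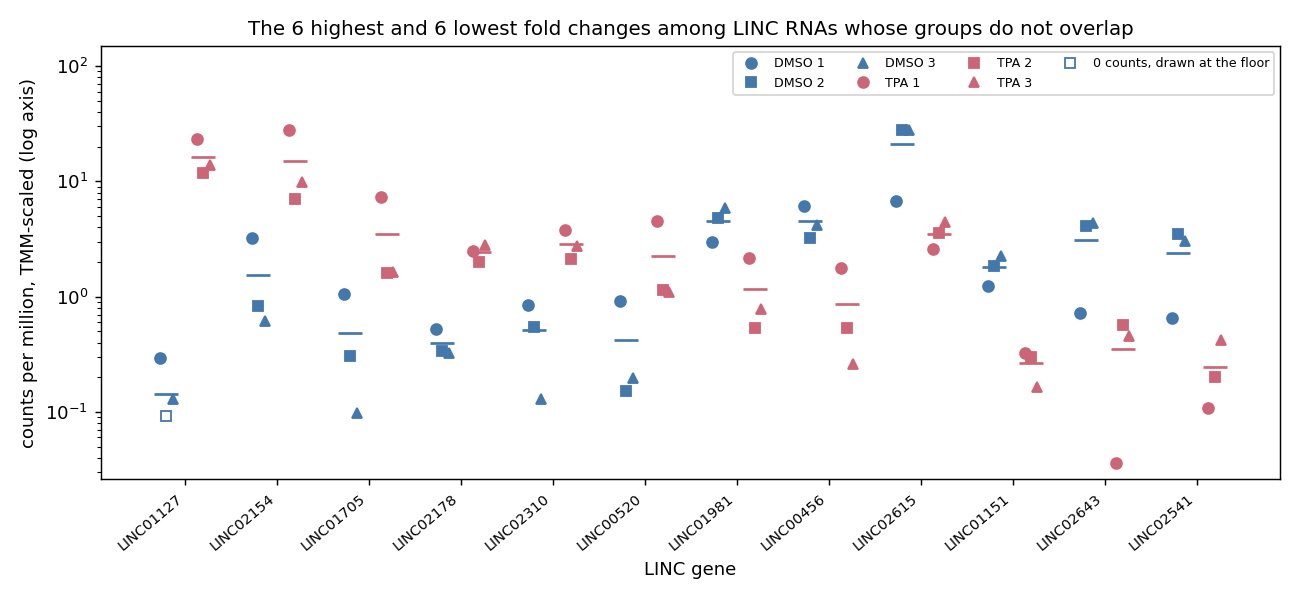
Level in each library (vertical log axis, TMM-scaled CPM) of the 6 LINC RNAs with the highest and the 6 with the lowest fold change among those whose groups do not overlap (horizontal axis, ordered by fold change). Points are libraries, DMSO in blue and TPA in red, short lines are group means, and the open square is a count of 0 drawn at the level of 3 counts; LINC01127 goes from at most 0.296 CPM in DMSO to at least 11.8 CPM in TPA.

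RefSeq (GRCh38.p14) gave the promoter, from 250 bases before to 50 bases after a transcript start, for 131 of the 211 genes, with 143 promoters in all. TPA acts on transcription in part through AP-1, the FOS and JUN dimers whose binding letters are also known as the TPA response element, so the promoters were searched on both strands for TGANTCA. The letters were found in 19 of the 143 (13.3%), where 7.71% of all 35116 promoters in the table of that length held them. By the order of the groups, 4 of 19 promoters of genes with all TPA libraries above DMSO held them, 5 of 33 of genes with all TPA libraries below, and 10 of 91 of the rest. The cyclic AMP response letters TGACGTCA were in 3.50% against 1.85% of all, and a loose 10-base form of the NF-kB motif in 51.0% against 58.7%. A match describes the letters and is not evidence of binding.

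The first promoter below is that of LINC02178, the only called gene shown, and the other 4 are the promoters of genes with all TPA libraries above DMSO that hold AP-1 letters, which are in capitals. Not shown are the 5 promoters with these letters among genes with all TPA libraries below DMSO. The promoters of LINC01705 and LINC02310, which had all TPA libraries above DMSO, hold no such letters and are not shown either. LINC00963 is on the plus strand at chr9:129488410-129488709. The others are on the minus strand, at chr16:50395084-50395383 for LINC02178, chr3:46423618-46423917 for LINC02009, chr6:85404753-85405052 for LINC02535 and chr1:167195756-167196055 for LINC01363. RefSeq gives 2 promoters for LINC02535; the one shown lies outside the gene as GENCODE 29 draws it (chr6:85387219-85390186).
LINC02178: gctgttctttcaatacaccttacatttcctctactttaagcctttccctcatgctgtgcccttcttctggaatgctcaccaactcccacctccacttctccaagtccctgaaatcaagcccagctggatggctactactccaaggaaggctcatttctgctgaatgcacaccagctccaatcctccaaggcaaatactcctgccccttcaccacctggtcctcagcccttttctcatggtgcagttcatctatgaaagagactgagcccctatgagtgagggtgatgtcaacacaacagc
LINC02009: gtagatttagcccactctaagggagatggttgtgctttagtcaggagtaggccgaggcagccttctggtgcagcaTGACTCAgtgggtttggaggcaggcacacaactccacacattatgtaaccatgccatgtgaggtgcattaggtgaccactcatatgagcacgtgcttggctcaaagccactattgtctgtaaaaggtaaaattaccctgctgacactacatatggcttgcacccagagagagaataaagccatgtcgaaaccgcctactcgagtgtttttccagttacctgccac
LINC02535: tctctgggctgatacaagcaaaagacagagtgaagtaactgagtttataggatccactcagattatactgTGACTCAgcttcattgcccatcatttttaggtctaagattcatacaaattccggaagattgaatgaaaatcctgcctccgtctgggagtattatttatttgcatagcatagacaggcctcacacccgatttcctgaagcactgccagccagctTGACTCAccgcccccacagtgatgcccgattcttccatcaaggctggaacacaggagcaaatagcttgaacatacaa
LINC01363: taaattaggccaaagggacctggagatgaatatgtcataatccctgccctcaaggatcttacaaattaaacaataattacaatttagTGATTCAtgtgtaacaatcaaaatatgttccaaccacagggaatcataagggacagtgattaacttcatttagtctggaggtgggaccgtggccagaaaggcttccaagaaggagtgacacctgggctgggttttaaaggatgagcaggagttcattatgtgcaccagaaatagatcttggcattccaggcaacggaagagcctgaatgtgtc
LINC00963: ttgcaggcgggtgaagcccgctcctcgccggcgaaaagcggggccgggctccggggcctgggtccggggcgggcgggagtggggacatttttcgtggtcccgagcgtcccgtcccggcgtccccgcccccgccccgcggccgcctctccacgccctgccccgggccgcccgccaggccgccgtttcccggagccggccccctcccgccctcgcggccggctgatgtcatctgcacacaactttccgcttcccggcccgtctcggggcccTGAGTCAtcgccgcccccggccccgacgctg
LINC02178 held none of the 3 motifs, LINC02535 held the AP-1 letters at 2 places in the promoter shown and at none in its other promoter, and LINC02009, LINC01363 and LINC00963 held them at 1 place each. LINC02009, LINC02535 and LINC01363 were picked after their values were seen.

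LINC02009 had 8.15, 3.56 and 2.37 CPM in DMSO and 13.7, 15.7 and 13.1 CPM in TPA. Its log2 fold change was 1.59 ± 0.45 (adjusted p = 0.101 by edgeR, and 0.0116 with the block). LINC01363 had 1.54, 0.335 and 0.455 CPM in DMSO and 5.21, 2.28 and 2.38 CPM in TPA (2.08 ± 0.64 on the log2 scale, adjusted p = 0.121, and 0.0051 with the block, edgeR); it averaged 1 CPM only in TPA, so its test is a description. In LINC02535 the TPA libraries at 5.36, 1.41 and 1.69 CPM lay just above the DMSO libraries at 1.38, 1.04 and 0.585 CPM (1.49 ± 0.60, adjusted p = 0.2, and 0.0489 with the block, edgeR).

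More of the LINC RNAs were lower than higher after TPA. The median log2 fold change was -0.27, with quartiles of -0.83 and 0.26, and 129 of 211 (61.1%) were below 0. The median over all genes tested was -0.11, and over tested genes at 1 CPM or more -0.02. The 12223 protein-coding genes at 1 CPM or more had a median of 0.06, and the 1732 other lincRNA or antisense genes at that level had -0.19, with 62.6% below 0. Scaling by library totals alone moved the median over all genes to -0.36 and that of the LINC RNAs to -0.51, and median-ratio factors moved them to -0.01 and -0.18, so that the LINC RNAs had the lower median under each scaling.

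In 29 LINC RNAs (13.7%) every TPA library lay above every DMSO library, and in 53 (25.1%) every TPA library lay below. Among all genes tested, 14.3% were separated upward and 15.2% downward; among tested genes at 1 CPM or more these shares were 17% and 13.8%, and among the other lincRNA or antisense genes 10.2% and 18.2%. Genes that passed the level threshold through 1 group weigh on these counts. All 7 genes that averaged 1 CPM only in TPA were separated upward, and 19 of the 29 that did so only in DMSO were separated downward. Of the 175 genes at 1 CPM or more in both groups, 22 (12.6%) were separated upward and 34 (19.4%) downward, and their median log2 fold change was -0.12 with 57.1% below 0. The comparison shares above were not held to 1 CPM in both groups, so they are no like background for these 175. Over all 211 genes, scaling by library totals alone gave 16 separated upward and 67 downward.

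**Figure D3:**
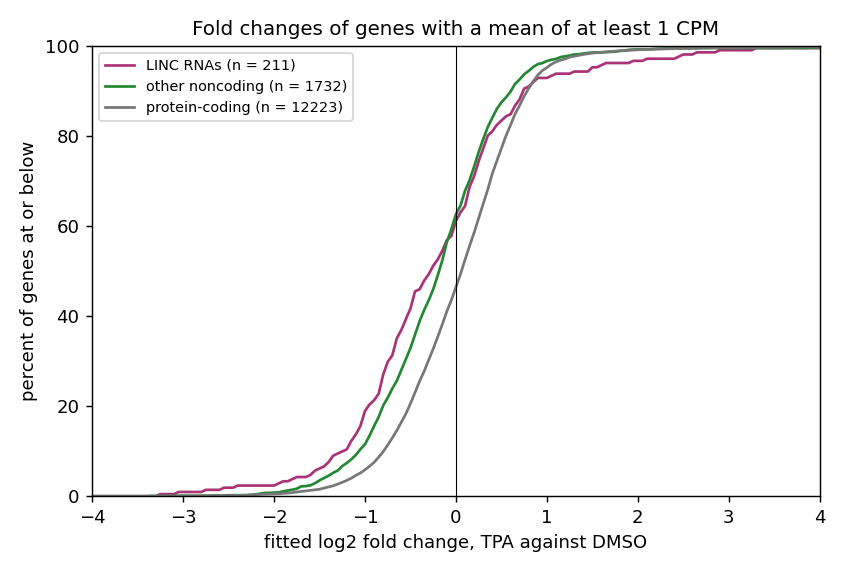
Cumulative share of genes (vertical axis, percent) at or below each fitted log2 fold change of TPA against DMSO (horizontal axis), for the 211 LINC RNAs, the 1732 other lincRNA or antisense genes and the 12223 protein-coding genes with a mean of at least 1 CPM. The LINC RNA curve lies left of the protein-coding curve over most of its range, with 61.1% of LINC RNAs below 0.

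The libraries numbered 1 deviated together, while numbers 2 and 3 correlated as highly when crossed, so pairs 2 and 3 rest on the labels alone. The 3 pairs were also read one by one, as log2 ratios of TPA to DMSO with a prior count of 2. The median ratio of the LINC RNAs was -0.11 in pair 1, -0.48 in pair 2 and -0.37 in pair 3. In 42 genes all 3 ratios were above 0 and in 84 all were below 0, together 59.7% of the 211, where 52.2% of all genes tested had 1 sign throughout. Among tested genes at 1 CPM or more that share was 53.5%, and among the other lincRNA or antisense genes at that level 54.6%. Genes that passed the level threshold through 1 group weigh on the 59.7%. With the replicate number as a block, 13 LINC RNAs rose and 28 fell in edgeR's test, against 4.58% and 6.52% of all genes tested. These counts, and those of the other fits below, include genes that averaged 1 CPM in 1 group only and so had to differ. Of the 175 genes at 1 CPM or more in both groups, 6 rose and 17 fell with the block. When a GC trend per library was removed as well, 20 rose and 36 fell of 209, against 9.18% and 10.8%. DESeq2 without the block called 16 higher and 20 lower, against 4.05% and 1.89% of the 40368 genes with any count. That set includes genes with too few counts for edgeR's filter, so it is no like background. With the GC correction alone, edgeR called 8 and 11 of 209, against 3.36% and 3.22%. Of the 41 called with the block, 38 were called under both fits, 13 upward and 25 downward.

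The library numbered 1 in each group bore on many genes. TPA 1 was the highest of the 6 libraries for 59 LINC RNAs and the lowest for another 59, and TPA 2 was the lowest for 69. Both libraries numbered 1 lay above the other 4 for 36 genes (17.1%) and below them for 41 (19.4%), against 22.2% and 23.9% of tested genes at 1 CPM or more. Without TPA 1, 29 LINC RNAs rose and 71 fell in edgeR's test, where 24.6% and 27.8% of all genes were called. Without both libraries numbered 1 the counts were 53 and 91, where 32.2% and 33.3% of all genes were called. Without DMSO 2 or DMSO 3 none was called in either direction, as was true of all genes in those fits; at an unadjusted p under 0.05, 11 were higher and 26 lower without DMSO 2, and 12 and 24 without DMSO 3.

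LINC00431, chosen after its values were seen, shows how the block acts on a single gene. Its level was 24.5, 4.75 and 4.62 CPM in DMSO and 66.3, 12.1 and 14.6 CPM in TPA, so the groups overlapped, while the log2 ratios of the 3 pairs were 1.44, 1.33 and 1.64. The adjusted p by edgeR was 0.37 without and 0.00541 with the block. GENCODE types this gene as a transcribed pseudogene, so reads of a near-identical copy may be counted in it.

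Pair 1 differed most from pairs 2 and 3 in LINC02443, LINC00308 and LINC02263. LINC02443 had 8.21, 9.02 and 10.2 CPM in DMSO, 13.9 CPM in TPA 1, and 1.68 and 2.05 CPM in TPA 2 and TPA 3. LINC00308 had 2.79, 2.77 and 4.33 CPM in DMSO and 3.84, 0.436 and 1.14 CPM in TPA. LINC02263 had 1.18, 1.01 and 2.99 CPM in DMSO and 3.19, 0.671 and 0.717 CPM in TPA. In each, TPA 1 was above at least 2 DMSO libraries and TPA 2 and TPA 3 were below all of them. Their log2 fold changes were -0.64 ± 0.76, -0.87 ± 0.69 and -0.18 ± 0.71, and none passed edgeR's test with or without the block (adjusted p between 0.118 and 0.897).

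GC content moved with the ratios of pairs 2 and 3. Across the 209 LINC RNAs with an annotated transcript, Spearman's rho of transcript GC with the log2 ratio was -0.10 in pair 1, 0.49 in pair 2 and 0.44 in pair 3. These are values across genes of the same 6 libraries, and over all genes tested they were -0.11, 0.56 and 0.50. In the 70 LINC RNAs of lowest GC (under 44.2%), the median ratio was -0.13 in pair 1, -1.17 in pair 2 and -1.21 in pair 3. In the 70 of highest GC (over 49.6%) it was -0.22, 0.27 and 0.08. The fitted log2 fold change had medians of -0.78 and 0.13 in these groups, and of -0.38 and -0.28 after GC correction with the block. The part of GC content in these differences was not tested.

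**Figure D4:**
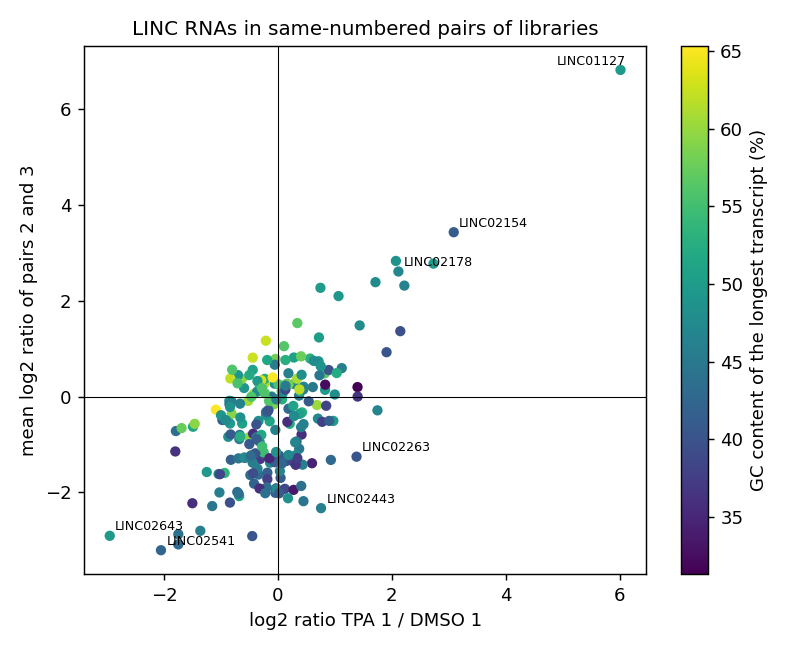
Log2 ratio of TPA 1 to DMSO 1 (horizontal axis) against the mean log2 ratio of pairs 2 and 3 (vertical axis) for the 209 LINC RNAs with an annotated transcript; each point is a gene, coloured by the GC content of its longest transcript (percent). LINC01127 lies at the upper right with a ratio of 6.01 in pair 1, and LINC02443 lies at 0.76 in pair 1 with ratios of -2.38 and -2.27 in pairs 2 and 3.

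Because some long noncoding RNAs share regulation with genes close to them, each LINC RNA was set beside its nearest protein-coding gene in the annotation. The median gap between the gene bodies was 18492 bases; 26 LINC RNAs overlapped the coding gene and 65 lay less than 5000 bases from it. In 162 pairs both genes were tested, with 154 distinct neighbours. Of these neighbours 2 rose, IL1R2 and ZC3H12A, and 1 fell, NFIA, against 0.861% and 0.394% of all genes tested. The fold changes of gene and neighbour had the same sign in 94 pairs (58.0%), with a Spearman's rho of 0.28 across pairs measured in the same libraries. The same sign was seen in 32 of 57 pairs less than 5000 bases apart, in 37 of 71 between 5000 and 100000 bases, and in 25 of 34 farther apart. Some neighbours serve more than 1 LINC RNA, and the share for LINC RNAs beside genes elsewhere was not computed, so these shares have no baseline.

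IL1R2, the decoy receptor that binds interleukin-1 without signalling, starts 4677 bases after LINC01127 on the same strand. It had 0.624, 0.305 and 0 CPM in DMSO and 51.5, 50.03 and 51.1 CPM in TPA, so that both genes went from near the floor to well above it in every TPA library. The log2 fold change of IL1R2 was 7.34 ± 0.83 (adjusted p = 0.025, edgeR), next to 6.83 for LINC01127. The adjusted p of IL1R2 was 0.234 without DMSO 2, 0.0556 without DMSO 3 and 0.0559 without TPA 3. Those fits called 0, 0 and 2 of all genes tested. In the annotation the bodies of these genes do not overlap.

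ZC3H12A encodes Regnase-1, a nuclease that degrades mRNAs of inflammatory genes, and starts 141 bases from LINC01137 on the other strand. It had 17.0, 15.8 and 14.9 CPM in DMSO and 41.6, 45.8 and 42.8 CPM in TPA (log2 fold change 1.45 ± 0.20, adjusted p = 0.0342, edgeR). LINC01137 had 3.22, 2.77 and 3.22 CPM in DMSO and 3.47, 6.75 and 5.83 CPM in TPA. All its TPA libraries were above DMSO, TPA 1 by little, and its log2 fold change of 0.80 ± 0.31 did not pass (adjusted p = 0.192, and 0.114 with the block, edgeR). The call of ZC3H12A was lost without any 1 library except TPA 1, with adjusted p between 0.0613 and 0.288. Those fits called between 0 and 139 of all genes tested, against 274 with all libraries.

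NFIA, a transcription factor of the nuclear factor I family, is the nearest coding gene to LINC01748 at a distance of 224768 bases on the other strand. It had 103, 164 and 176 CPM in DMSO and 27.1, 32.5 and 33.9 CPM in TPA (log2 fold change -2.25 ± 0.27, adjusted p = 0.025, edgeR). LINC01748 had 10.5, 8.65 and 9.30 CPM in DMSO and 8.40, 1.85 and 2.93 CPM in TPA. Its TPA libraries were all below DMSO, and it did not pass without the block (log2 fold change -1.11 ± 0.53, adjusted p = 0.266 without and 0.033 with the block, edgeR). The adjusted p of NFIA was 0.0526 after GC correction without the block, and between 0.0876 and 0.242 without DMSO 2, DMSO 3, TPA 2 or TPA 3. The fits that lacked 1 of these libraries called between 0 and 25 of all genes tested.

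The neighbours of the other genes with separate groups did not pass the test. PGRMC2, a membrane heme-binding protein related to a progesterone receptor component, lies 3922 bases from LINC02615 on the other strand; it had 47.9, 49.4 and 48.0 CPM in DMSO and 69.2, 72.1 and 73.9 CPM in TPA (log2 fold change 0.57 ± 0.19, adjusted p = 0.139, edgeR), the opposite sign to LINC02615. ZHX2, 87288 bases from LINC01151, had 24.4, 23.0 and 23.2 CPM in DMSO and 36.3, 39.1 and 38.8 CPM in TPA (0.69 ± 0.20, adjusted p = 0.102, edgeR), also opposite in sign to its LINC RNA. Both neighbours had separate groups, with TPA above DMSO. MBNL2, a splicing regulator 41812 bases from LINC00456, had 159, 107 and 113 CPM in DMSO and 97.5, 37.3 and 40.3 CPM in TPA. MIR1915HG, 119708 bases from LINC02643, is named as a microRNA host gene but is typed as protein-coding in GENCODE 29. It had 7.75, 29.5 and 28.7 CPM in DMSO and 1.09, 12.8 and 9.61 CPM in TPA. The fold changes of MBNL2 and MIR1915HG, -1.12 and -1.49 on the log2 scale, had the sign of the LINC RNA and passed with the block, not without it (adjusted p = 0.0169 and 0.00816, edgeR). BRD7 near LINC02178 had -0.40, KTN1 near LINC00520 -0.39, DUSP10 near LINC01705 0.48, FRMD6 near LINC02310 0.78, MARCKS near LINC02541 -0.15 and EOMES near LINC01981 -0.01. ATXN3L, nearest to LINC02154, had 2 counts over all libraries and was not tested.

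**Figure D5:**
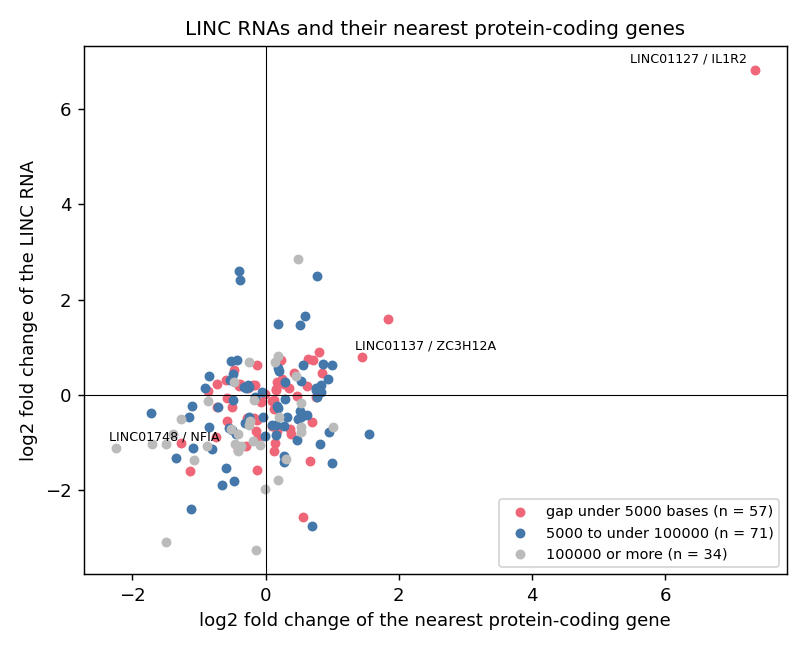
Fitted log2 fold change of the nearest protein-coding gene (horizontal axis) against that of the LINC RNA (vertical axis) for the 162 pairs in which both were tested; each point is a pair, coloured by the gap between the genes (57 pairs under 5000 bases, 71 from there to under 100000, 34 farther). LINC01127 and IL1R2 lie alone at the upper right, at 6.83 and 7.34.

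Some LINC RNAs also lie next to one another: 12 pairs were less than 100000 bases apart, and 8 of these had fold changes of the same sign. LINC00706 and LINC00707 lie 369 bases apart on opposite strands of chromosome 10 and had fold changes of opposite sign. LINC00706 had 1.48, 1.68 and 2.08 CPM in DMSO and 0.796, 0.269 and 0.456 CPM in TPA (log2 fold change -1.78 ± 0.44, adjusted p = 0.0808 without and 0.0267 with the block, edgeR), all TPA libraries below DMSO, where LINC00707 had all TPA libraries above. LINC00706 averaged 1 CPM only in DMSO, so its test is a description. On chromosome 3, LINC01980, LINC01981 and LINC01967 overlap or lie close together, and in each every TPA library was below every DMSO library (log2 fold changes -0.87, -1.97 and -1.35). The gene body of LINC01980 overlaps both of the others on the opposite strand. As the strand setting is not stated, it is not known whether their reads were told apart.

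Long noncoding RNAs known by names rather than LINC numbers were looked at through a list of 52, of which 51 were in the table and 35 were tested. By edgeR's quasi-likelihood test none was called in either direction; 4 were higher and 10 lower at an unadjusted p under 0.05 (11.3% and 10.7% of all genes tested), and the median log2 fold change was -0.29. With the block, 1 rose and 8 fell (4.58% and 6.52% of all genes). DESeq2 called 1 and 5 (4.05% and 1.89% of the 40368 genes with any count), and limma-voom 1 and 1 (1.13% and 0.596% of all genes tested). MALAT1, an abundant nuclear RNA of splicing speckles, had 3715, 3962 and 5189 CPM in DMSO and 2768, 1402 and 1709 CPM in TPA (log2 fold change -1.13 ± 0.29, adjusted p = 0.0837, and 0.0271 with the block, edgeR). NEAT1, the scaffold of paraspeckles, had 654, 547 and 617 CPM in DMSO and 544, 221 and 251 CPM in TPA (-0.84 ± 0.35, adjusted p = 0.219, and 0.0485 with the block, edgeR). In both, all TPA libraries were below DMSO, and TPA 1 was the closest to it.

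The 4 named RNAs with the lowest adjusted p were CASC2, DLEU1, MIR22HG and DLEU2. CASC2, described as a tumor suppressor candidate, had 1.08, 1.22 and 1.82 CPM in DMSO and 0.362, 0.168 and 0.0977 CPM in TPA (log2 fold change -2.71 ± 0.52, adjusted p = 0.0586, and 0.0143 with the block, edgeR). MIR22HG, the host transcript of miR-22, had 27.9, 10.6 and 9.11 CPM in DMSO and 96.8, 59.0 and 57.5 CPM in TPA (2.16 ± 0.48, adjusted p = 0.0676, and 0.000815 with the block, edgeR). DLEU1 and DLEU2, neighbouring and overlapping genes of chromosome 13 in a region often deleted in leukemia, had fold changes of -1.43 and -1.04 on the log2 scale (adjusted p = 0.0649 and 0.0704, and 0.0142 and 0.0227 with the block, edgeR). A second list of 8 LINC symbols reported to encode small proteins could not be followed, because 0 of its symbols were found in the table under those names.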

How the data were processed

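RNA from KYSE150 cells was sequenced in 3 libraries after TPA and 3 after DMSO. The table used holds whole-number counts per gene that the authors deposited; alignment with HISAT2 2.1.0 and counting with HTSeq 0.12.4 on hg38 are named in the submitters' processing notes. For the annotation release and the strand setting, nothing is stated in the sources used here. No row lacked a gene name.

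Counts were tested with edgeR 4.0.16 (quasi-likelihood, TMM, filterByExpr) in R 4.3.3 over all 21825 genes that passed the filter, TPA against DMSO, with Benjamini-Hochberg adjustment and a threshold of 0.05. Of 211 members, all passed that filter. Level plots and values are TMM-scaled CPM; membership used plain CPM. Symbols were matched to GENCODE 29 for positions, length and GC content, and promoters came from RefSeq (GRCh38.p14). Only the edgeR fit without a block was run on simulated counts with known changes. Its fold changes were checked at a spread far below that of these libraries, and the other fits were not simulated. Same-numbered libraries deviated together: the correlations of their deviations from the group means were 0.55, 0.34 and 0.37 for numbers 1, 2 and 3. Crossing numbers 2 and 3 gave values as high (0.36 and 0.37), so these pairs cannot be told apart; the numbers come from the labels.

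Genes named in the text are those called, the 8 highest in mean CPM, the 6 highest and 6 lowest fold changes among genes with separate groups, the 3 in which pair 1 differs most, those nearest the level threshold, MALAT1, NEAT1 and the 4 named RNAs of lowest adjusted p, and the neighbours of called or separated genes; any other gene was chosen after its values were seen. The members and the lists were chosen with earlier results of these data known. Alternatives were other scaling factors, filters and thresholds, DESeq2 1.42.0, limma-voom (limma 3.58.1), the replicate block, GC correction, and leaving out libraries.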

Additional observations from a re-analysis of the deposited data

How the results depend on the processing

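With 3 libraries per group, the number of calls among the 211 LINC RNAs depended strongly on the setting, from 2 higher and 1 lower in the edgeR fit without a block. That fit called 0.861% and 0.394% of all genes tested, and the shares in brackets below are likewise those of all genes in each fit. DESeq2 called 16 and 20 (4.05% and 1.89%) and the replicate block 13 and 28 (4.58% and 6.52%). The block with GC correction called 20 and 36 (9.18% and 10.8%), and GC correction alone 8 and 11 (3.36% and 3.22%). No filter gave 4 and 6 (1.06% and 0.5%). For DESeq2 and no filter the shares are over the 40368 genes with any count, no like background. All these counts include LINC RNAs that averaged 1 CPM in 1 group only. The lower calls were 3 with library-size scaling (1%), 3 with the stricter filter (0.758%) and 4 with limma-voom (0.596%). At an adjusted p under 0.01, or among members with at least 1 CPM in each group, 0 and 0 were called, and with a mean of at least 2 CPM 1 and 0. Leaving out 1 library gave 0 to 29 higher and 0 to 71 lower, the most in the fit that lacked TPA 1 (24.6% and 27.8%). When both libraries numbered 1 were dropped, 53 and 91 were called, in a fit that called 32.2% and 33.3% of all genes. The cause was not tested. The median log2 fold change was -0.51 with library-size scaling, which also left 16 LINC RNAs with all TPA libraries above DMSO in place of 29.

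For the neighbouring genes (2 and 1), DESeq2 called 18 and 8 (4.05% and 1.89% of all genes in that fit) and the block 4 and 15 (4.58% and 6.52%). The block with GC correction called 24 and 23 (9.18% and 10.8%), and GC correction 8 and 7 (3.36% and 3.22%). Leaving out both libraries numbered 1 gave 65 and 55 (32.2% and 33.3%). The lower calls were 2 with library-size scaling (1%), 2 with no filter (0.5%) and 3 with limma-voom (0.596%). Leaving out 1 library gave 0 to 49 and 0 to 48, the most without TPA 1 (24.6% and 27.8%). For the list of 52 named RNAs (0 and 0), no filter gave 1 and 2 (1.06% and 0.5% of all genes in that fit) and DESeq2 1 and 5 (4.05% and 1.89%). Limma-voom gave 1 and 1 (1.13% and 0.596%), and the block 1 and 8 (4.58% and 6.52%). The block with GC correction gave 4 and 11 (9.18% and 10.8%), and GC correction 1 and 3 (3.36% and 3.22%). Dropping both libraries numbered 1 gave 11 and 16 (32.2% and 33.3%). Library-size scaling gave 1 lower (1%). Leaving out 1 library gave 0 to 8 and 0 to 14, the most without TPA 1 (24.6% and 27.8%).

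Of the values computed for single named genes under the alternatives, 572 kept direction and side of the threshold, 154 newly passed it, 25 no longer passed and 30 changed sign. The replicate block made no called gene lose its call. The sign changes were all in genes that did not pass the edgeR test. LINC00294 had -0.14 with library-size scaling and -0.013 to 0.29 with 1 library left out, the lowest without DMSO 1. LINC00662 had 0.16 with the block and GC correction, 0.17 with GC correction, and -0.85 to 0.10, above 0 without TPA 2 or TPA 3. LINC01278 had -0.18 with library-size scaling, -0.0037 with the stricter filter, -0.030 with the block and GC correction and -0.029 with GC correction. LINC01426 had -0.999 to 0.47, above 0 without DMSO 1. LINC02263 had 0.15 with the block and GC correction, 0.031 with GC correction, and -1.20 to 0.47, above 0 without DMSO 3, TPA 2 or TPA 3. Among neighbours, KTN1 had 0.023 with the block and GC correction and 0.0049 with GC correction. EOMES had 0.11 with median-ratio factors, 0.11 with no filter, 0.14 with DESeq2, 0.44 without both libraries numbered 1, and -0.43 to 0.41, above 0 without DMSO 2, TPA 1 or TPA 2. FRMD6 had -0.21 to 1.15, below 0 without TPA 1. MARCKS had 0.11 with the block and GC correction, 0.14 with GC correction, and -0.31 to 0.080, above 0 without DMSO 3 or TPA 1. At the lowest levels, 3 counts correspond to 0.0914 to 0.109 CPM, so a change of a LINC RNA that stayed under it was not detectable at this depth.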
